A study of Mus musculus with 18 samples.

Results

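The regions described here were stretches of accessible DNA in wild-type progenitors (HPC) that were among the stronger ones of their list and had no counterpart in progenitors without Kmt2c. Overlapping rows of each deposited peak list were merged into regions, and the strength of a region was its highest −log10 p, the peak caller's measure of how far the reads there exceeded the local background. A wild-type HPC region was taken where its strength reached the median of its list, 83.8, and where it overlapped no region of the knockout HPC list by even 1 bp. The regions were thus chosen by measured values, their strength in wild-type HPC and their absence from the knockout HPC list, and neither is a finding. This gave 644 regions, 1.96% of the 32916 stronger wild-type HPC regions and a small part of all 65832 regions of that list. The 6 lists of the series, merged with each other, held 94178 regions. The rule can also be read with the median taken over the missing regions alone, which gives 8513 regions, and the values below are for the 644.

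ATAC-seq, in which the Tn5 transposase inserts sequencing adapters into accessible DNA, was carried out on 18 mouse samples in 6 groups. At 8 weeks of age there were 2 samples of Kmt2c knockout HPC and 4 of wild-type HPC, and 2 samples of Kmt2c knockout haematopoietic stem cells (HSC) and 2 of wild-type HSC. The knockout mice carried Kmt2c f/f alleles with Vav-Cre, which recombines in blood cells from early development on, and the labels give the genotype as Kmt2c -/-. At 16 weeks there were 4 samples of wild-type HSC given 5-fluorouracil at 150 mg/kg and 4 of wild-type HSC given PBS vehicle, each in 3 injections spaced 3 weeks apart. Age and treatment therefore differed together between the 16-week and the 8-week HSC lists, and their effects on a lookup cannot be told apart. The markers used to sort HSC and HPC are not stated in the labels, which name RNA as the extracted molecule although the assay reads DNA.

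Kmt2c, also called MLL3, encodes a histone H3 methyltransferase of the COMPASS family that deposits monomethylation at enhancers, the distal elements that raise transcription of genes. Mutations of the human gene recur in blood cancers and other tumours, and in mouse HSC the gene is known to favour differentiation over self-renewal. HPC are the dividing progenitors that HSC give rise to. Accessible regions at promoters tend to be shared between cell types, while distal ones differ more.

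A single list pooled all samples of each group, so replicates could not be compared, no test across samples was possible and no p-value is given. Read depth per sample was not known. The knockout HPC list held 52840 regions and the wild-type HPC list 65832, the knockout HSC list 48620 and the wild-type HSC list 40073, and the 5-fluorouracil list 71363 and the vehicle list 80100. The −log10 p of a region grows with the number of reads, and 2 knockout against 4 wild-type HPC samples were pooled, so absence from the shorter knockout list is not a measure of closed chromatin. Shares below carry 95% Wilson intervals, which cover counting error over regions only and treat neighbouring regions as independent. No wild-type HPC region above the threshold lay nearest to Kmt2c itself (chr5:25271795-25498855), which had 3 weaker wild-type HPC regions, and the labels do not say which of its exons were removed. Of the genes of stem cell identity, 28 of 40 had a region at an annotated end in knockout HPC and 32 of 40 in wild-type HPC, and of myeloid progenitor genes 17 and 19 of 25, with none in either list at Mpo and Elane, which encode granule enzymes of myeloid precursors. Of markers of other cells, 13 and 14 of 20 T and NK cell genes, 7 and 9 of 15 mature B cell genes, 6 and 9 of 20 macrophage and neutrophil genes, 5 and 7 of 15 mast cell, basophil and eosinophil genes and 6 and 9 of 18 stromal and endothelial genes had one in knockout HPC and in wild-type HPC. Cd79a and Ms4a1 of B cells and C1qa and C1qb of macrophages had none in either list. An open gene end does not measure expression, ends are the outermost annotated ones (Actb had no region within 1 kb of its ends in either list), and the part of other cells in the results was not tested.

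Most of the missing regions were distal, but 46 overlapped 55 of the 32851 promoter windows of RefSeq, each 300 bases long and spanning a transcript start. The windows below are shown because they span what the HSC lists held at such sites. Dync1i2, which encodes an intermediate chain of the dynein motor, and Drap1, a subunit of a repressor that binds the TATA-binding protein, lay at missing regions that were in all 4 HSC lists. Igfbp7, a secreted protein that binds insulin-like growth factors, and Slc38a11, a putative amino acid transporter, lay at missing regions that were in wild-type HSC and not in knockout HSC. Rara, the retinoic acid receptor alpha, had a promoter window at a missing region that was in no HSC list. The fold enrichment of that region, its summit signal over local background, was 5.64 in wild-type HPC. This was the lowest of the 58 missing regions in no HSC list, and a knockout HPC region lay 1.77 kb away. The sequences are those of RefSeq on GRCm38.p6, written 5′ to 3′ on the strand of the gene. Capitals mark matches, on either strand, to the 11 motifs searched: ETS as GGAAGT, RUNX as TGTGGT, the GATA motif as AGATAA, AP-1 as TGANTCA, E-box as CAGCTG, C/EBP as TTGCNNAA, GC box as GGGCGG, NFY as CCAAT, CRE as TGACGTCA, STAT as TTCNNNGAA and the CTCF core as CCACNAGG. The windows are Dync1i2 at chr2:71211456-71211755, plus strand, Drap1 at chr19:5424930-5425229, minus strand, Igfbp7 at chr5:77407996-77408295, minus strand, Slc38a11 at chr2:65363977-65364276, minus strand and Rara at chr11:98939461-98939760, plus strand.
Dync1i2: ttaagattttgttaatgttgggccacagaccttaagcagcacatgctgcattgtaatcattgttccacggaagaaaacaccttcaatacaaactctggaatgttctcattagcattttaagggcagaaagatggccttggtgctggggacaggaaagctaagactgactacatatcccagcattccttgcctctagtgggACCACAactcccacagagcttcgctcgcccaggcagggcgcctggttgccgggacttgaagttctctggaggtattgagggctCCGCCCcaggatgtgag
Drap1: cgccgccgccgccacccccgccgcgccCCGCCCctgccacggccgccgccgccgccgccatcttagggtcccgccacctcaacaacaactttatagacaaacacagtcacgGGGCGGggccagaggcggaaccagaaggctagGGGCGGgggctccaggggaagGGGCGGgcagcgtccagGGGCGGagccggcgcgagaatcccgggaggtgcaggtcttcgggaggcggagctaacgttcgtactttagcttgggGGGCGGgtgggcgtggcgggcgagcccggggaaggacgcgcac
Igfbp7: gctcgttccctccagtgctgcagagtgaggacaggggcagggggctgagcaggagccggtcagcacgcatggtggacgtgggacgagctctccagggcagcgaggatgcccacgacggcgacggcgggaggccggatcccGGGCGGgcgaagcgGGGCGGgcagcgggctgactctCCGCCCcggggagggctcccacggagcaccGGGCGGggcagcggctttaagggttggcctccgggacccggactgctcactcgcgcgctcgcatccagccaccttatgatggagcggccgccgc
Slc38a11: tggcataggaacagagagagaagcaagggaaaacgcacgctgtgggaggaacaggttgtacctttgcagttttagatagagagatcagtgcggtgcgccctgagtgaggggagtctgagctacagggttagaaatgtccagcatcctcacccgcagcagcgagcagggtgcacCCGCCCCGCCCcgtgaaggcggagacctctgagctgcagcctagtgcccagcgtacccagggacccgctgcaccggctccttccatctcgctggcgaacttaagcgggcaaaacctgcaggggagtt
Rara: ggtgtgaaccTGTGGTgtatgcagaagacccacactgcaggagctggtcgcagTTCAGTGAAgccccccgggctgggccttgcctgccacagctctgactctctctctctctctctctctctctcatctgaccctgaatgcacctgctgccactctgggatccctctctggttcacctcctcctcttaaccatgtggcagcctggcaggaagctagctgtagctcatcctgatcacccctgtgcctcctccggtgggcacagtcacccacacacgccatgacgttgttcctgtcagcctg

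GC boxes were the matches in 4 of these 5 windows, with 1 in that of Dync1i2, 6 in that of Drap1, 4 in that of Igfbp7 and 2, which overlap, in that of Slc38a11. The window of Dync1i2 also held a RUNX match, and that of Rara a RUNX and a STAT match. A match is a description of the letters and not a bound site.

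Absence from the knockout HPC list was commonest among weak regions, and most of the 644 lay just above the median. Of the 32916 weaker wild-type HPC regions 16381, or 49.8%, were missing in knockout HPC, and of all regions 17025, or 25.9%. When the regions were ordered by strength and divided into 20 bins of near equal size, the missing share was 88.0% in the weakest and 15.7% in the last bin below the median, then 9.51% in the first bin above it. The bins above the median held 313, 167, 97, 44, 13, 6, 2, 0, 0 and 2 of the 644, in order of increasing strength. With the stronger regions divided into 4 parts of 8229, the weakest held 540 missing regions and the next 94, the third 8 and the strongest 2. In the opposite direction 27 of 26420 stronger knockout HPC regions, 0.102%, overlapped no wild-type HPC region, and of all 52840 knockout HPC regions 3677, or 6.96%. The knockout list is the shorter one, so these shares were not set against each other as gain and loss.

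**Figure D1:**
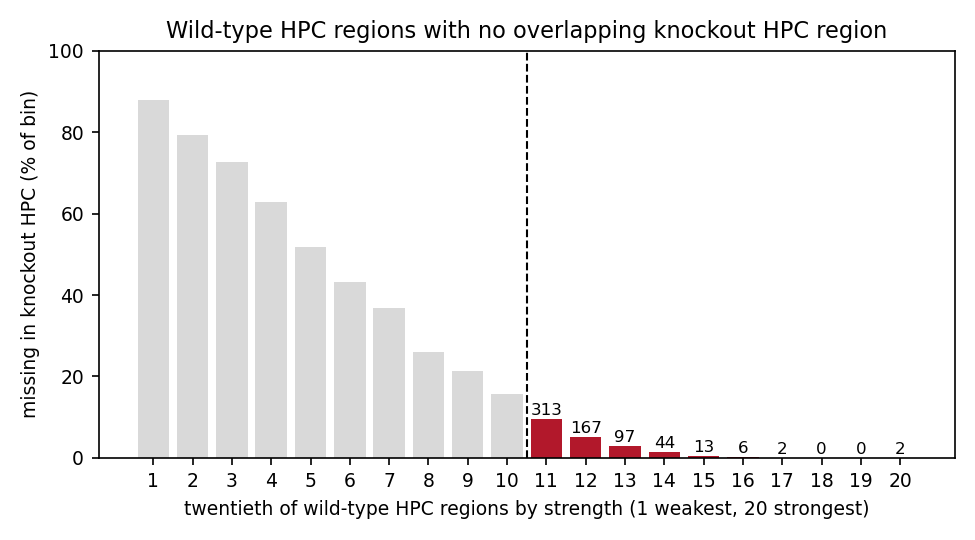
Share of wild-type HPC regions with no overlapping knockout HPC region (%, vertical axis) in 20 bins of increasing strength (horizontal axis), with the median as a dashed line, red bars for the 644 stronger missing regions and their number above each bar. The share falls with strength from 88.0% in the weakest bin, and 313 of the 644 lie in the first bin above the median.

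The 5 missing regions just inside the threshold, at strengths of 83.86 to 83.90, lay near Sgms1, a sphingomyelin synthase, Cxcr1, a chemokine receptor, Tnfrsf12a, the receptor of TWEAK, Ago2, the slicing Argonaute protein, and on chromosome 11 with no protein-coding gene within 100 kb. The 5 missing regions just outside it, at 83.59 to 83.75, lay near Pdzd2, Gata5, Grik4, Klk4 and Kcnd3.

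The 644 were narrower and weaker than the stronger regions that knockout HPC shared. Their median strength was 95.8, against 176 for the other 32272 stronger regions, and their median width 454 bp against 567 bp. Their median fold enrichment, the ratio of signal at the summit to local background, was 18.6, against 19.8 for the others, and ran from 4.67 to 41.3. Within the weakest part the order was the other way, with a median fold enrichment of 18.2 for missing and 15.8 for shared regions. A single summit was listed for 78.1% of them (74.8 to 81.1), against 64.1% (63.6 to 64.6) of the others. All of these values come from the wild-type list that chose the regions and describe what the rule selected.

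Many missing regions had values the peak caller also gave elsewhere. The exact pair of strength and fold enrichment recurred at another wild-type HPC region for 311 of the 644, 48.3% (44.5 to 52.2), against 17.9% (17.5 to 18.3) of the other stronger regions. Among the weakest of the 4 parts this share was 50.9% (46.7 to 55.1) of missing against 37.9% (36.8 to 39.0) of shared regions. These points form the straight upper edge in the plot of strength and fold enrichment.

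**Figure D2:**
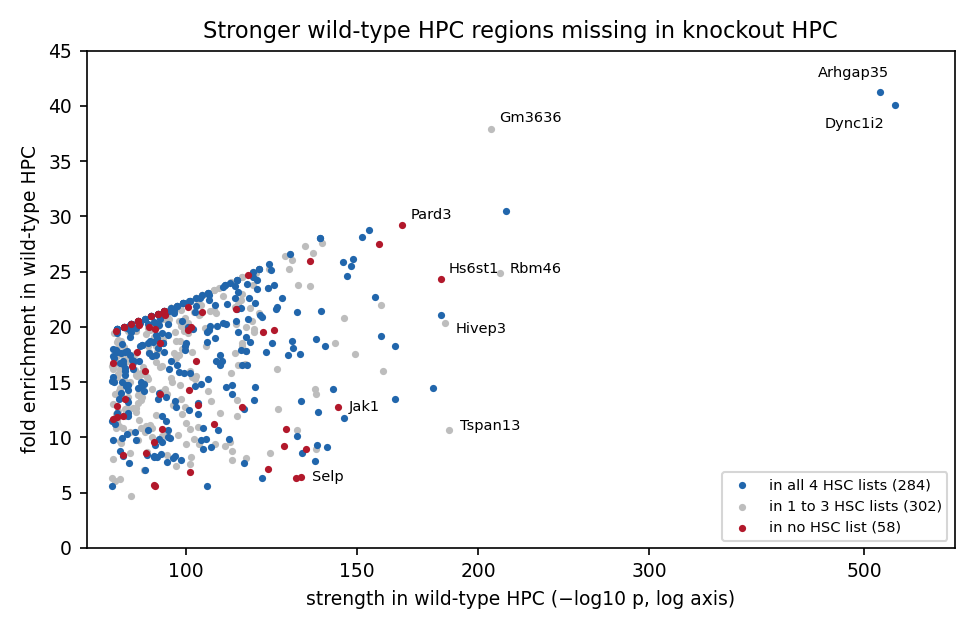
Fold enrichment (vertical axis) against strength (−log10 p, horizontal log axis) in wild-type HPC for the 644 regions missing in knockout HPC, coloured by the number of HSC lists that held them. Arhgap35 and Dync1i2 stand alone above a strength of 500, and the 58 regions in no HSC list lie below them at fold enrichments of 5.64 to 29.2.

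The nearest knockout HPC region lay at a median distance of 8.63 kb from a missing region, and the closest at 75 bp. It was within 200 bp of 9 of the 644, within 1 kb of 61, 9.47% (7.44 to 11.98), and within 10 kb of 356. The next wild-type HPC region was at a median of 7.37 kb from a missing region and 6.06 kb from the other stronger ones. The 61 with a knockout region within 1 kb had a median fold enrichment of 11.2, against 19.4 for the rest, and 24.6% of them (15.5 to 36.7) were at a gene end. Along the chromosome 342 of the 644, 53.1%, had no other missing region next to them, a share near the 55.9% of the other stronger regions and the 55.2% of all wild-type HPC regions. A further 181 were in a run of 2 missing regions of any strength, and the longest run with one of the 644 held 9. There were 39 pairs of neighbouring missing stronger regions within 100 kb.

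The share of stronger regions that were missing varied over the chromosomes, and whether they differ was not tested. With the Y chromosome aside it ran from 0.986% on the X chromosome, with 5 of 507, to 2.86% on chromosome 19, with 31 of 1083. Within 10 Mb of Kmt2c it was 1.75%, 5 of 286. On the Y chromosome all 3 stronger regions were missing, where the knockout HPC list held 1 region and the wild-type HPC list 7. The sex of the mice is not in the labels, and the Y chromosome was left out of the regions named below.

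The HSC lists were not used by the rule, and most of the missing regions were found in them. Of the 644, 403 were in knockout HSC, 62.6% (58.8 to 66.2), against 87.7% (87.3 to 88.0) of the other stronger regions, with 87.2% over all stronger regions. In wild-type HSC there were 349, 54.2% (50.3 to 58.0), against 81.9% (81.5 to 82.3), with 81.4% over all. In 5-fluorouracil HSC there were 543, 84.3% (81.3 to 86.9), against 93.8% (93.5 to 94.1), with 93.6% over all, and in vehicle HSC 564, 87.6% (84.8 to 89.9), against 95.3% (95.02 to 95.49), with 95.1% over all. In each HSC list the missing regions were thus found less often than the shared ones, by more than the counting error. The lists differ in length, so the order of the lists follows that of their lengths and shows no difference between the groups.

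Weak regions are found less often in any list, so the lookup was repeated within the weakest of the 4 parts, where missing and shared regions had median strengths of 93.6 and 99.0. There 62.4% (58.2 to 66.4) of 540 missing regions were in knockout HSC, against 74.9% (73.9 to 75.9) of 7689 shared ones, and 52.8% (48.6 to 57.0) in wild-type HSC, against 64.3% (63.2 to 65.4). In 5-fluorouracil HSC the shares were 84.4% (81.1 to 87.3) and 88.1% (87.4 to 88.8). In vehicle HSC they were 88.0% (84.9 to 90.4) and 90.7% (90.0 to 91.3), with intervals that overlap. In the second part 62.8% (52.7 to 71.9) of 94 missing regions were in knockout HSC, against 84.7% (83.9 to 85.4) of 8135 shared ones, and 61.7% (51.6 to 70.9) in wild-type HSC, against 77.8% (76.8 to 78.7). In 5-fluorouracil HSC the shares there were 84.0% (75.3 to 90.1) and 92.4% (91.8 to 93.0), and in vehicle HSC 85.1% (76.5 to 90.9) and 94.0% (93.5 to 94.5). The gap between missing and shared regions was therefore smaller within the weakest part than over all stronger regions. It was larger than the counting error in both parts for each list, except vehicle HSC in the weakest part. Missing regions of the weakest part were still weaker than shared ones, and median strengths were not compared in the second part. The parts thus do not match strength, and its share in the remaining gaps was not tested.

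**Figure D3:**
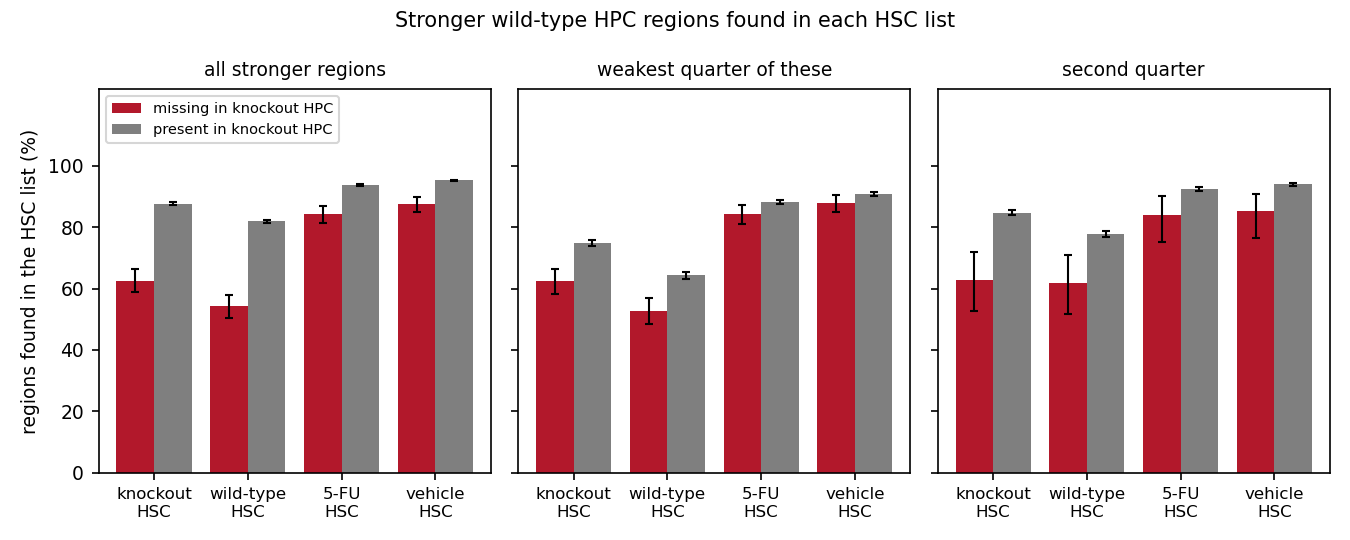
Share of stronger wild-type HPC regions found in each HSC list (%, vertical axis), for regions missing (red) and present (grey) in knockout HPC, over all stronger regions and in their weakest and second parts by strength, with 95% Wilson intervals. Over all stronger regions the red bars are lower in each of the 4 lists, at 62.6% against 87.7% in knockout HSC, and in the weakest part the gap in vehicle HSC is 88.0% against 90.7%.

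Where missing regions were found in HSC, their median strength was lower than that of the shared regions found in the same list. Its median strength percentile was 38.1 in knockout HSC, against 69.0 for the other stronger regions found there, and 36.1 against 65.5 in wild-type HSC. In 5-fluorouracil HSC it was 53.5 against 77.4, and in vehicle HSC 58.7 against 79.5. Within the weakest part the percentiles were closer, at 36.9 against 46.5 in knockout HSC and 34.1 against 40.2 in wild-type HSC.

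All 4 HSC lists held 284 of the 644, 44.1% (40.3 to 48.0), against 78.9% (78.5 to 79.4) of the other stronger regions and 78.2% over all. No HSC list held 58, 9.01% (7.03 to 11.5), against 3.55% (3.35 to 3.76) of the others and 3.66% over all, but in the weakest part 8.33% (6.29 to 11.0) against 7.31% (6.75 to 7.91), where the intervals overlap. In the second part no HSC list held 12.8% (7.46 to 21.0) of missing against 4.49% (4.06 to 4.96) of shared regions, and the intervals were apart. Both 16-week lists and neither 8-week HSC list held 94, 14.6% (12.1 to 17.5), against 4.44% (4.22 to 4.67), and in the weakest part 14.3% (11.6 to 17.5) against 9.12% (8.49 to 9.78). Exactly 1 of the 8-week HSC lists held 166 of the 644, of which 110 were in knockout HSC and 56 in wild-type HSC. Of all 32916 stronger regions, 2787 (8.47%) and 870 (2.64%) fell in these classes. Wild-type HSC thus had 33.7% (27.0 to 41.2) of the 166 missing regions, against 23.3% (21.9 to 24.7) of 3491 shared ones. In the weakest part it had 32.7% (25.7 to 40.5) against 24.6% (22.6 to 26.8), with intervals that overlap. Regions missing in knockout HPC were therefore more often in knockout HSC, the longer of these lists, than in wild-type HSC, and the wild-type share exceeded that among shared regions by more than the counting error over all stronger regions, but not within the weakest part.

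**Figure D4:**
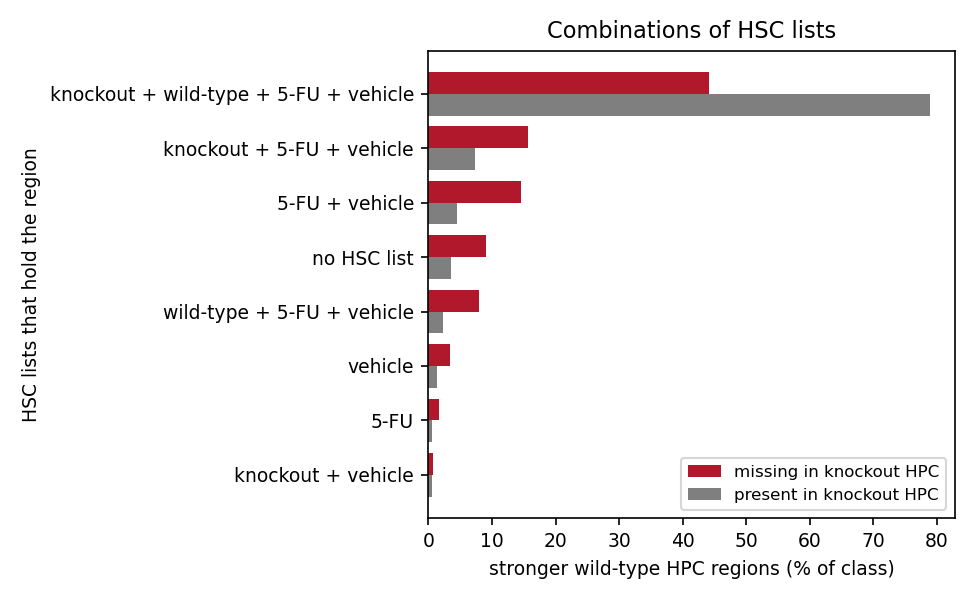
Share of stronger wild-type HPC regions (%, horizontal axis) held by each of the 8 commonest combinations of HSC lists (vertical axis), for regions missing (red) and present (grey) in knockout HPC. All 4 lists held 44.1% of missing against 78.9% of present regions, and the 16-week lists alone 14.6% against 4.44%.

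A pair of missing regions was far stronger than the rest. Fold enrichments are the authors' deposited values, each relative to the background of its own list, so they describe a region within a list and do not measure a change between lists. The region at an end of Dync1i2 (chr2:71211514-71212074), over the promoter window printed above, had a fold enrichment of 40.1 in wild-type HPC, at strength rank 2444 of 65832. In HSC its fold enrichment was 40.0 in knockout, 39.4 in wild type, 33.6 after 5-fluorouracil and 33.3 with vehicle, while the nearest knockout HPC region was 16.6 kb away. The region within Arhgap35 (chr7:16558176-16558524), which encodes a GTPase-activating protein, had 41.3 in wild-type HPC. In HSC it had 39.0 in knockout, 38.5 in wild type, 37.0 after 5-fluorouracil and 37.2 with vehicle. Both were thus among the accessible regions of HSC of either genotype, and their strengths of 538.6 and 519.6 compare with 213 for the next region, on chromosome 14 with no protein-coding gene within 100 kb. That region had 30.5 in wild-type HPC, 14.8 in knockout HSC, 17.4 in wild-type HSC, 27.7 after 5-fluorouracil and 28.2 with vehicle.

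Others among the strongest were unevenly held by the HSC lists. The region 27.6 kb from Rbm46, an RNA-binding protein of germ cells, had a fold enrichment of 24.9 in wild-type HPC and was in neither 8-week HSC list, with 15.0 after 5-fluorouracil and 17.0 with vehicle. The region at an end of the predicted gene Gm3636 had 37.9 in wild-type HPC, 14.7 in knockout HSC, 21.0 in wild-type HSC and 4.47 with vehicle and was not in the 5-fluorouracil list. The region near Tspan13, a tetraspanin, had 10.7 in wild-type HPC and was in neither 8-week HSC list, with 3.37 after 5-fluorouracil and 4.66 with vehicle. The region near Gpd1l, a homologue of a glycerol-3-phosphate dehydrogenase, was in all 4, at 14.3 to 22.8. So were those near Rab7, a GTPase of late endosomes, Itga9, an integrin alpha subunit, Dnah17, an axonemal dynein, and Dmxl2.

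Regions in no HSC list were the ones that, of the 6 lists, only that of wild-type HPC held. The lists differ in length and read depth was not known, so this does not show that they were closed in the other groups. Hs6st1, a heparan sulphate sulfotransferase, was 43.0 kb from the strongest of the 58, with a fold enrichment of 24.3 and the nearest knockout HPC region 27.1 kb away. Pard3, a cell polarity gene, held the next, with 29.2, and Osbpl10, an oxysterol-binding protein relative, one with 27.5 that was 75.4 kb from any knockout HPC region. The region 53.3 kb from Atp1b1, a subunit of the sodium pump, had 26.0. Lower fold enrichments were found within Jak1, the kinase of cytokine receptors, with 12.7, within Runx3, a Runt family factor, with 9.19, and within Maml3, a Notch coactivator, with 8.94. The lowest of the 10 strongest were within Selp, which encodes P-selectin, with 6.45 and a knockout HPC region 143 bp away, and within Fli1, an ETS factor of stem cells and megakaryocytes, with 6.31 and a knockout region 865 bp away. Katnal1 was nearest to the remaining one, with 10.8 and a knockout region 352 bp away. The 10 strongest of this class thus divide into regions far from any knockout HPC region with high fold enrichment and regions close to one with low fold enrichment.

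Distance from knockout HPC regions went with fold enrichment among all 644, when they were divided into 4 groups of 161 by fold enrichment. In the lowest, 4.67 to 13.9, the nearest knockout HPC region was at a median of 2.15 kb, then at 7.60 kb and 12.7 kb, and in the highest at 22.2 kb. The distance to the next wild-type HPC region was not divided in this way. Whether the order of distances is particular to the knockout list was therefore not tested. The share in no HSC list followed no such order. It was 14.3% (9.71 to 20.5) in the lowest, 3.73% (1.72 to 7.89) and 9.94% (6.21 to 15.5) in the middle groups and 8.07% (4.78 to 13.3) in the highest. The intervals of the lowest and the highest overlap, while those of the lowest and the second do not. The share at a gene end was 18.6% (13.4 to 25.4) in the lowest, 11.8% and 6.83% in the middle groups and 6.83% (3.86 to 11.8) in the highest.

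Some missing regions were in wild-type HSC and not in knockout HSC, and so were absent from both knockout lists. Those strongest in wild-type HPC lay within Snx29, a sorting nexin, and on chromosome 5 (chr5:112121712-112122035) away from any protein-coding gene. The Snx29 region had a fold enrichment of 16.0 in wild-type HPC, 6.68 in wild-type HSC and 4.99 after 5-fluorouracil and was not in the vehicle list. The chromosome 5 region had 22.0 in wild-type HPC and 10.1 in wild-type HSC and was in neither 16-week list. Those within Dym, Crocc2, Mb21d2, Poli, a translesion DNA polymerase, Exoc4, an exocyst subunit, and Kdm2a, a histone H3 demethylase, were in both 16-week lists. So were those 14.8 kb from 2210010C04Rik and 4.59 kb from Zc3h12a, an RNase that limits inflammatory transcripts. The fold enrichments of all of these in wild-type HSC ran from 5.83 within Kdm2a to 13.3 within Crocc2. Their strength percentiles in that list ran from 0.669 within Snx29 to 42.8 within Crocc2, so several were among its weakest regions. At Igfbp7, whose promoter is printed above, the values were 22.6 in wild-type HPC, 16.2 in wild-type HSC, 20.4 after 5-fluorouracil and 21.9 with vehicle. At Slc38a11 they were 21.2, 13.9, 10.5 and 15.0 in the same lists.

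Missing regions that were instead in knockout HSC and not in wild-type HSC were led by Hivep3, a zinc finger transcription factor, with a fold enrichment of 20.4 in wild-type HPC, 16.2 in knockout HSC, 23.3 after 5-fluorouracil and 20.9 with vehicle. Rapgef2, an exchange factor of Rap, had 17.5 in wild-type HPC and 7.66 in knockout HSC, and Mro 27.6 and 18.8. Ptprn2, a receptor phosphatase relative of secretory granules, had 23.8 and 19.9, and Ror1, a receptor of Wnt5a, 23.6 and 22.0. A region 59.0 kb from Zfp770 had 26.6 and 12.7, and Reep3 12.6 and 7.89. A region 18.7 kb from Rbm24, an RNA-binding protein, had 17.8 and 16.3, and one on chromosome 15 with no gene within 100 kb 13.9 and 10.3. The region within Aldh2, which clears aldehydes and is known to protect HSC, had 8.58 and 3.95. Strength percentiles in the knockout HSC list ran from 5.14 for Rapgef2 to 61.7 for Ror1. All 10 were also in the vehicle list, and the chromosome 15 region was not in that of 5-fluorouracil HSC.

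A smaller share of missing than of shared regions was at a gene end. Within 1 kb of an annotated end lay 71, 11.0% (8.83 to 13.7), against 27.9% (27.4 to 28.4) of the other stronger regions and 27.5% over all. In the weakest part the shares were 11.9% (9.39 to 14.9) and 22.2% (21.3 to 23.2). A RefSeq promoter window was overlapped by 46, 7.14% (5.40 to 9.40), against 22.7% (22.2 to 23.2) of the others and 22.4% over all. Of the missing regions 56.4% were inside a gene body and 7.92% (6.07 to 10.3) had no protein-coding gene within 100 kb, against 65.3% and 5.20% (4.97 to 5.45) of the others, and the median distance to a gene end was 17.8 kb against 9.17 kb. The share at a gene end went with the number of HSC lists that held a region. It was 17.3% (13.3 to 22.1) for the 284 missing regions in all 4, 10.8% for those in 3 and 3.81% for those in 2, while 0 of 39 in 1 list and 1 of 58 in none were at a gene end. The shared regions had 33.0% (32.4 to 33.6), 11.5%, 6.94%, 5.79% and 4.62% in the same order.

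**Figure D5:**
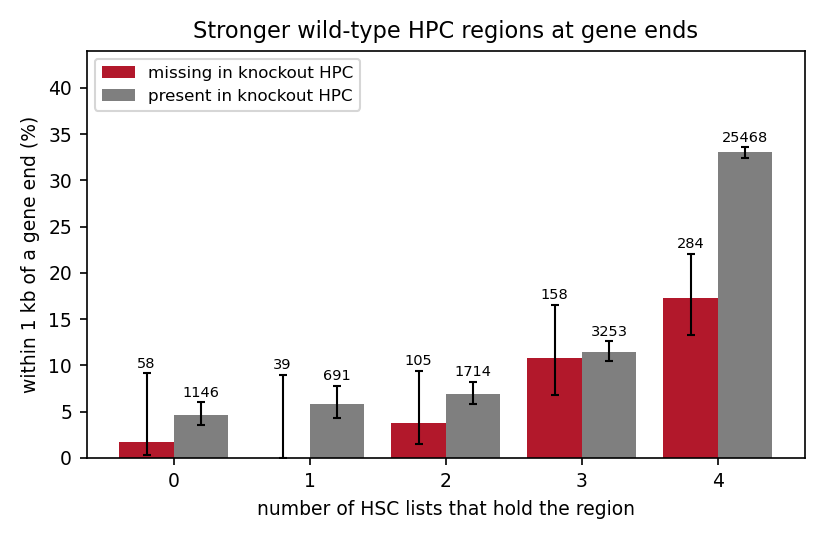
Share of stronger wild-type HPC regions within 1 kb of a gene end (%, vertical axis) by the number of HSC lists that held the region (horizontal axis), for regions missing (red) and present (grey) in knockout HPC, with 95% Wilson intervals and the number of regions above each bar. The share is 17.3% of missing and 33.0% of present regions in all 4 lists, and the intervals of both classes overlap for 0, 1, 2 and 3 lists.

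The missing regions at gene ends were led by Dync1i2 and Gm3636, given above, and by Itgb2, which encodes CD18, the beta subunit of leukocyte integrins. Its region had a fold enrichment of 28.8 in wild-type HPC, 22.1 in knockout HSC, 17.7 in wild-type HSC, 17.4 after 5-fluorouracil and 18.7 with vehicle. Stmn3, a stathmin that destabilises microtubules, had both of its wild-type HPC regions among the missing ones, with 26.1 and 20.7, and both were in all 4 HSC lists. Plekhm2, an adaptor between lysosomes and kinesin, had 18.5 in wild-type HPC, 18.1 in knockout HSC, 14.1 in wild-type HSC, 14.7 after 5-fluorouracil and 13.5 with vehicle. Drap1 had 12.6 in wild-type HPC and between 9.60 and 10.6 in the HSC lists. H1f3, a linker histone, had 7.65 with a knockout HPC region 155 bp away, Bdh2, a dehydrogenase, 17.9 with one 342 bp away, and Zkscan8 21.7 with the nearest at 24.0 kb. Mb21d2 was named above as absent from knockout HSC too.

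The promoter windows at missing regions were close in GC content to those at shared ones. Their median GC content was 60.7%, against 61.3% for 9485 windows at the other stronger regions and 52.7% for all windows, and the ratio of observed to expected CpG was at least 0.6 in 63.6% of them, against 74.2% and 35.8%. A GC box was in 65.5% (52.3 to 76.6) of the 55, against 65.8% (64.8 to 66.7) of windows at shared regions and 35.7% of all windows, and an ETS match in 27.3% (17.3 to 40.2), against 30.9% (30.0 to 31.8) and 23.8%. A CCAAT box was in 21.8% (12.9 to 34.4), against 42.2% (41.2 to 43.2) and 37.4%, but in the weakest part of the shared regions it was in 28.2% (26.0 to 30.5). An E-box match was in 1 of the 55, 1.82% (0.322 to 9.61), against 14.8% (14.1 to 15.6) and 16.3%. No window of the 55 held an AP-1 or CRE match (0.0 to 6.53 for each), present in 4.40% and 3.29% of windows at shared regions and in 7.81% and 1.79% of all windows. The interval covers both shares at shared regions. RUNX was in 10.9%, GATA in 9.09%, C/EBP in 10.9%, STAT in 5.45% and the CTCF core in 1.82%, against 13.1%, 5.20%, 8.04%, 6.33% and 5.76% of windows at shared regions and 16.8%, 11.2%, 10.8%, 8.30% and 4.99% of all windows. Several windows can belong to 1 region, so these intervals are too narrow. The missing regions at Slc38a11 and within Phf21a also overlapped the hairpins of the microRNAs Mir6337 and Mir1955.

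Missing regions were scattered over genes. The 644 lay nearest to 567 protein-coding genes within 100 kb, of which 541 had 1, 26 had 2 and none more, among 13093 genes with a stronger region. A nearest gene need not be the one that a region regulates. With the Y chromosome left out, those with 2 included Snx29, Gm973, Stmn3, Hrh2, a histamine receptor, Ror1, Fam160b1, Rpp30, a subunit of RNase P, Ptp4a2, a phosphatase known in HSC maintenance, Xcl1, a chemokine, Dennd2a and Slc39a11, a zinc transporter. By share of the stronger regions of a gene, with at least 6 of these, Gm973 and Lrba, which is needed to recycle CTLA4, had 2 of 6, Fam160b1, Xcl1 and Supt3, a subunit of the SAGA complex, 2 of 7, and Tbx3, a T-box factor, 2 of 8. Ror1 and Ptp4a2 had 2 of 9. For 98 genes every stronger region was missing, and 95 of these had only 1, as did 6237 of the 13093 genes.

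Over the listed genes of blood and other cells together the missing share was near that of all stronger regions. Over 14 lists with 318 genes, 23 of 949 stronger regions were missing, 2.42% (1.62 to 3.61), where the background was 1.96%. The genes of stem cell identity had 6 of 173, 3.47% (1.60 to 7.36), and those of AP-1, Egr and NF-kB factors 5 of 107, 4.67% (2.01 to 10.5). Erythroid and megakaryocyte genes had 2 of 42, myeloid progenitor genes 2 of 83, lymphoid progenitor genes 1 of 94, chromatin regulators 2 of 92 and cytokine receptor and signalling genes 1 of 102. Macrophage and neutrophil markers had 2 of 27 and stromal and endothelial markers 2 of 58. The cell cycle genes had 0 of 73, T and NK cell markers 0 of 32, mature B cell markers 0 of 20, mast cell, basophil and eosinophil markers 0 of 15 and housekeeping genes 0 of 31. The intervals of 2 lists began above the background share, at 2.01% for AP-1, Egr and NF-kB factors and at 2.06% for macrophage and neutrophil markers, which rest on 5 and 2 regions.

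The 6 stem cell genes were Satb1, Fli1, Cdkn1c, Prdm16, Thy1 and Lmo2. Satb1, a chromatin organiser of lymphoid priming, had a missing region with a fold enrichment of 18.3 in wild-type HPC, 26.9 in knockout HSC, 27.0 in wild-type HSC, 16.3 after 5-fluorouracil and 18.4 with vehicle. Cdkn1c, the cell cycle inhibitor p57 of quiescent HSC, had one over its gene end with 9.88 in wild-type HPC, 11.2 in knockout HSC, 12.8 in wild-type HSC, 10.9 after 5-fluorouracil and 9.99 with vehicle. Prdm16, a transcription factor that maintains HSC, had 9.23 in wild-type HPC, with a knockout HPC region 395 bp away. That region was in neither 8-week HSC list but in both 16-week lists, with 2.65 after 5-fluorouracil and 2.41 with vehicle. The regions of Satb1 and Cdkn1c were thus in HSC of both genotypes, while that of Fli1, given above, was in no HSC list.

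Of the AP-1, Egr and NF-kB factors, Nfatc2, a calcium-dependent factor of lymphocyte activation, had 2 missing regions. That with a fold enrichment of 17.2 in wild-type HPC, 13.4 kb from the gene, was in neither 8-week HSC list. It had 8.09 after 5-fluorouracil and 8.72 with vehicle. The region with 14.0 was in all 4 HSC lists. The region 22.6 kb from Jun had 17.7 in wild-type HPC, 18.2 in knockout HSC, 14.9 in wild-type HSC, 19.6 after 5-fluorouracil and 17.3 with vehicle. The region at Fosl1, an AP-1 subunit, had 12.6 in wild-type HPC and 10.01 in knockout HSC and was not in the 8-week wild-type HSC list. That within Mafk, a small Maf protein, had 7.14 and was in no HSC list.

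Among lineage genes, the region 14.5 kb from Car2, the carbonic anhydrase of red cells, had 22.7 in wild-type HPC, 24.3 in knockout HSC, 17.6 in wild-type HSC, 20.8 after 5-fluorouracil and 21.7 with vehicle. Ermap, an erythroid membrane protein, had 19.5 in wild-type HPC and 9.94 in knockout HSC. Its region was not in the 8-week wild-type HSC list but was in both 16-week lists. Ctsg, the neutrophil protease cathepsin G, had a region 615 bp from its end with 19.8 that was in no HSC list. Ikzf2, the Helios factor, was 76.8 kb from a region with 25.2 in wild-type HPC. That region was in HSC only at 16 weeks, with 6.51 after 5-fluorouracil and 5.08 with vehicle. Ly86, a partner of an innate receptor, had 13.8 and was likewise in the 16-week HSC lists alone. Mertk and Marco, receptors of macrophages for dying cells and for particles, had 20.3 and 12.7 in wild-type HPC and 14.7 and 15.3 in knockout HSC and were not in wild-type HSC. Of the chromatin regulators Arid1b, a SWI/SNF subunit, had 13.9, and Wdr5, a COMPASS subunit, had a region 30.2 kb away with 9.45, and neither was in an 8-week HSC list. Acan and Runx2 of the stromal list had 22.9, in all 4 HSC lists, and 8.62, in none.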

How the data were processed

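ATAC-seq peak lists of 18 samples were used, 1 list per group as the samples' labels name it. Bowtie2, MACS2 and the build mm10 (GRCm38) are named per the submitters' processing notes, with no version, role or filter, which the sources used here do not give, and signal tracks were not analysed here. In the deposited lists the authors' fold enrichment is the ratio of summit signal to local background, the deposited −log10 p is the peak caller's, summits are deposited as offsets in bp, and the deposited score was not used. Depth per sample was not known.

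Overlapping rows were merged (Python 3.11.15, pandas 2.3.3, numpy 2.4.6, with scipy 1.17.1 for intervals and matplotlib 3.10.9 for plots). Strength was the highest −log10 p, and a region was found in another list at an overlap of at least 1 bp. The merging and overlap steps were tested on simulated intervals. No model was fitted and no p-value computed. Shares have 95% Wilson intervals, pooled and within 4 parts of the stronger regions by strength. Coordinates are on mm10, counted from 1.

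Regions went to the nearest of 21887 protein-coding gene bodies within 100 kb in a RefSeq table of GRCm38.p6, which has no strand, so a gene end within 1 kb stood for its start. Promoter windows and microRNA hairpins came from RefSeq tables of the same build. The genes named were the 12 with most missing regions, the 8 with the largest share of them among genes with at least 6 stronger regions, and those of the 10 strongest or most enriched missing regions overall and in each HSC class and at gene ends. The 5 regions on either side of the threshold and up to 4 genes per gene list were added, and the Y chromosome was left out. A gene that this rule named is not reported here. Regions at printed promoters that fall outside this rule were picked after their values were seen. The regions and gene lists were chosen with earlier results of these data known. Other settings tried were the strength measure, its threshold, the overlap, the peak threshold, the list length, merging and the distance to a gene end.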

Additional observations from a re-analysis of the deposited data

How the results depend on the processing

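The settings below change which regions are counted as missing, except the distance to a gene end, and the lookup in the HSC lists was kept. No paired analysis was possible because each group has 1 pooled list and no values per replicate, and for the same reason no sample could be left out. The number of missing stronger regions was 644 as reported, 2351 with strength taken as fold enrichment, 10 within the strongest 25%, 8513 with the median taken over the missing regions alone, 996 where the larger part of a region had to be covered to count as shared, 1056 with windows of 200 bp around summits, 1475 with the weakest 25% of the knockout list removed, 166 with the wild-type list limited to the length of the knockout list, and 2611 with rows not merged. It was 583 with no knockout region within 1 kb. The number of stronger knockout HPC regions missing in wild type, 27 of 26420 as reported (0.102%), was 230 (0.871%) with fold enrichment. It was 46 (0.174%) with the larger part covered, 360 (1.36%) with windows and 63 (0.238%) with the weakest 25% of the wild-type list removed. Within the strongest 25% it was 3 of 13210 (0.0227%). With rows not merged, 129 of 35136 stronger rows (0.367%) were missing. The share at a gene end, 11.0%, was 8.21% with fold enrichment, 30.0% of the 10 regions within the strongest 25%, 21.2% with the larger part covered, 27.8% with windows, 15.1% with the weakest 25% removed, 8.43% at limited length, 13.8% with rows not merged and 17.4% with ends within 2.5 kb. The gene-end share with windows was thus close to the 27.5% over all stronger regions. With fold enrichment the shares in knockout, wild-type, 5-fluorouracil and vehicle HSC were 49.1%, 38.0%, 74.3% and 81.2%. Within the strongest 25% they were 70.0%, 60.0%, 80.0% and 90.0%, with the median of the missing regions 40.1%, 30.0%, 70.5% and 77.3%, with the larger part covered 71.3%, 62.1%, 88.3% and 90.8%, with windows 75.6%, 69.3%, 90.2% and 92.2%, and with rows not merged 54.2%, 42.5%, 79.4% and 84.0%. The share in knockout HSC was 66.4% with the weakest 25% removed, and that in wild-type HSC 60.2% at limited length. The share with a knockout HPC region within 1 kb, 9.47%, was 1.87% with fold enrichment and 0.0% within the strongest 25%. The share in wild-type HSC among missing regions in exactly 1 8-week HSC list, recomputed under these settings after the data were seen, was 0.0% within the strongest 25%, where it rests on 1 region. The remaining 26 values moved by less than their interval or, for counts, by less than 1.5 times. The causes of these shifts were not tested. With no replicate and no read depth, absence from a list of 2 pooled samples cannot be told apart from too few reads there, and no count here is a measure of regions lost without Kmt2c.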
